A study of Bubalus bubalis with 8 samples.

Results

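The leukocyte lineage genes examined here are 33 genes that mark blood-derived immune cells, and they were measured in cultured buffalo mammary epithelial cells (MECs) at 8 conditions. The genes were listed by symbol and every probe carrying such a symbol was taken, which gave 76 probes among the 24839 gene names of the array. The list holds 8 pan-leukocyte, 18 myeloid, 5 T cell and 2 B cell genes. It was drawn up with earlier results of the same arrays in view, so the levels below describe these arrays and none of them was tested. The cells were MECs at passage 10, grown from mammary tissue of 1 adult buffalo. Unstressed cells (CTR) stayed at 37 °C, and the heat stressed cells spent 1 h at 42 °C and then recovered at 37 °C for 30 min or for 2, 4, 8, 12, 16 or 24 h before trypsinization. The purity of the cultures had been judged by staining for cytokeratin 18 and vimentin. Each condition had 1 array, so no difference has a replicate behind it and no p-value was computed.

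Leukocytes arise from blood stem cells and share proteins of the cytoskeleton and of signalling that epithelial cells make little of. Myeloid cells, that is monocytes, macrophages and granulocytes, add receptors for bacterial products and antibodies, an enzyme complex that makes superoxide, and lysosomal proteases. T cells are recognised by the CD3 chains of their receptor and B cells by the CD79 chains of theirs. Milk and mammary tissue hold macrophages, neutrophils and lymphocytes beside the epithelium.

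A level below is the log2 intensity of a probe above the 75th percentile of its array, and a probe counts as detected where it is well above background. Where a probe was not detected on 1 of a pair of arrays, the fold is a bound ("at least"), taken against the detection limit of that array or the probe's own value if higher. A probe detected on neither array has no fold and is not counted as tested. Each share of all genes or probes at least 3-fold higher or lower is a share of those tested in that comparison. Probes in a block of the CTR array that was dark were left out, which removed 3 probes (1 each of CD14, LYZ and SPI1) and left 73. The arrays came from 2 slides: slide 1 carried CTR, 8 h, 12 h and 24 h, and slide 2 carried 30 min, 2 h, 4 h and 16 h. In a comparison of any slide 2 array with CTR, treatment and slide cannot be told apart. Over probes detected on both arrays, the SD of the difference was 0.38 to 0.55 (log2) among the 6 pairs on slide 1 and 0.77 to 0.95 for pairs across slides. For 30 min against 2 h it was also 0.38, but for the other pairs on slide 2 it was 0.74 to 0.98. The values used at 30 min hold no repeat spots, so the noise of that array is not known, and the spot SD of CTR stood in for it where an error at 30 min is given. The share of all probes detected ran from 23.2% at 24 h to 40.2% at 2 h, and the limit of detection was lowest at 4 h. The error of a log2 change from CTR, from spots of 1 probe, was 0.28 to 0.54. Differences between cultures are not part of this error.

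The labelled cell type showed its markers. Of 20 luminal and basal epithelial genes 13 were detected on all 8 arrays, among them the keratins KRT5, KRT14, KRT17 and KRT19. The summed level of the 20 lay between 8.95 at 30 min and 10.1 at 16 h on the log2 scale, with undetected genes at their limit. It was 10.1 in CTR and 9.14 at 2 h. In CTR 16 of these genes were detected, at 30 min 13 and at 2 h 18. Single markers differed at least 3-fold from CTR on the arrays of slide 2, and 1 was at least 3-fold lower at 12 h on slide 1. KRT8 was 13.0-fold lower than CTR at 30 min. At 2 h KRT8 was 6.14-fold and KRT5 3.66-fold lower than CTR, and KRT15 was 6.35-fold, MUC1 5.36-fold and KRT18 at least 3.71-fold higher. The median change of the list was -1.03 at 30 min and -0.65 at 2 h, and its part in the levels below was not tested. KRT18, whose protein was stained in the cultures, was detected at 2 h (0.99) and 16 h (0.07) and on no other array. VIM, the gene of vimentin, was detected on all 8 arrays at levels of 5.65 to 7.48.

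The probes were designed on cattle and hybridized to buffalo RNA, so what a signal stands for rests on the probe. The first 30 of the 60 bases are shown for 1 probe each of genes that the patterns turn on and for 3 probes of PTPRC that disagree, all as the array files list them, with their place in the cattle build Btau_3.1.
LAPTM5, probe A_73_101891, chr2:126807761-126807820: caccaacaccccttgtgctactgctttgtg
TYROBP, probe A_73_118891, chr18:46016252-46016311, minus strand: acagagtggcctccatgagatgtcagacct
SPI1, probe A_73_111873, chr15:77551597-77551656, minus strand: actgcctgaccagaagtcacgatccatgga
CSF1R, probe A_73_118762, chr7:60848894-60848950, minus strand: aactaacagtcacaaagtggaatgtccctg
CD3E, probe A_73_104727, chr15:27446810-27446869: ctccatgaatgtgctaaattccttgtcagc
PTPRC, probe A_73_P072546, chr16:76032484-76032543: tctatcatccagcaagaagcagcttgtttg
PTPRC, probe A_73_P476493, chr16:76032762-76032821: ctcaagatggcctccttgtcctggtgaaat
PTPRC, probe A_73_P072536, chr16:76018515-76018574: agtacatcttgattcaccaggccttggtgg
Whether these positions are exonic was not annotated here.

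Of the 26 pan-leukocyte and myeloid genes 17 were at least 3-fold higher than CTR at both 30 min and 2 h, where 8.44% and 6.16% of all genes tested were. Of these 26 genes 14 were detected at 30 min and 2 h and on no array of slide 1, and of the 14 10 were also detected at 16 h and 8 at 4 h. Taking 1 probe for each gene, the one detected on most arrays, 27 of the 33 genes were detected on the 30 min array, 30 on the 2 h array, 19 on the 4 h array and 20 on the 16 h array. On slide 1 the numbers were 10 (CTR), 12 (8 h), 13 (12 h) and 11 (24 h). In percent this is 30.3% in CTR, 81.8% at 30 min and 90.9% at 2 h, where 32.0%, 29.4% and 44.1% of all genes were detected. At 4 h and 16 h it is 57.6% and 60.6%, beside 41.5% and 30.4% of all genes. The number at 4 h rests on the low limit of that array. With the highest limit of detection set on every array it was 9 at 4 h, 10 in CTR, 26 at 2 h and 19 at 16 h. ITGAM, CD163 and CD79B were detected on no array with any of their probes. On all 8 arrays 7 genes were detected, and 16 were detected at both 30 min and 2 h but on no array of slide 1.

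**Figure D1:**
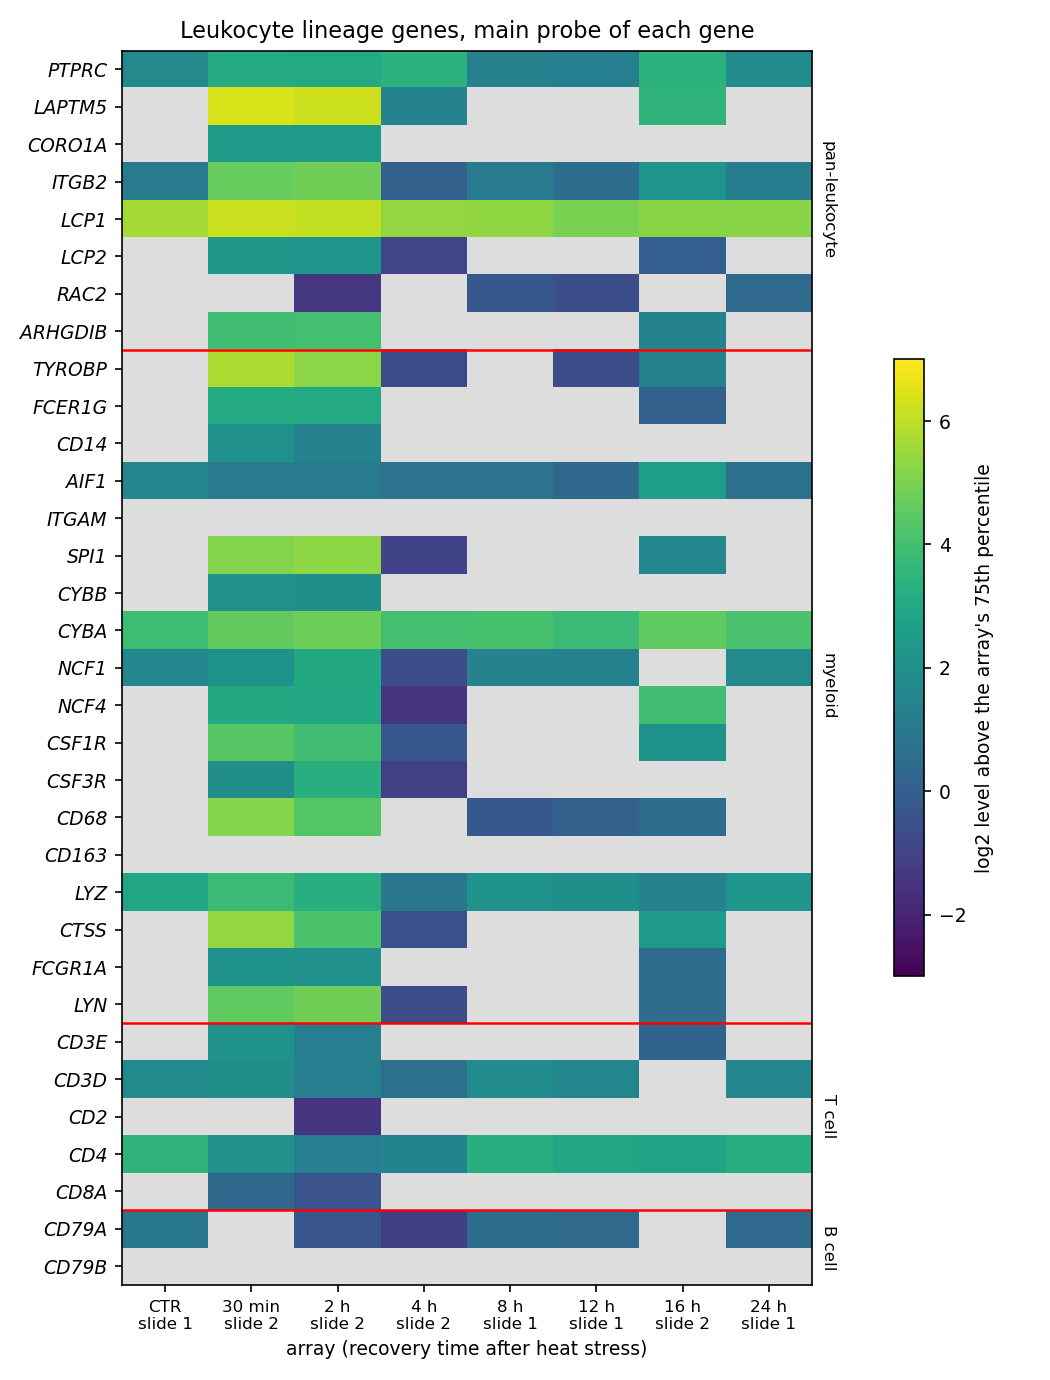
Log2 level above the array's 75th percentile (colour) of the main probe of each of the 33 genes (rows, in 4 groups) on the 8 arrays (columns, with their slide); grey cells are probes that were not detected. Of the 26 pan-leukocyte and myeloid rows 14 are coloured at 30 min and 2 h and grey on every array of slide 1. Of these 14 rows 10 are also coloured at 16 h. PTPRC, ITGB2, LCP1, AIF1, CYBA, LYZ and CD4 are coloured on all 8 arrays.

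**Figure D2:**
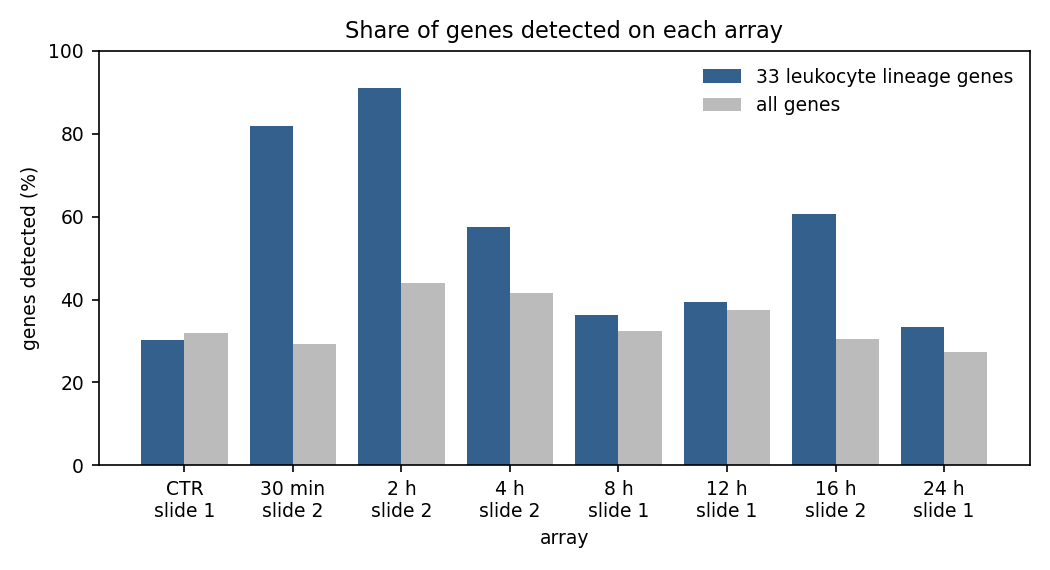
Percent of the 33 leukocyte lineage genes (dark bars) and of all genes (grey bars) detected on each array, by main probe. The dark bar reaches 81.8% at 30 min and 90.9% at 2 h and lies at 30.3% in CTR.

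Compared with CTR, 18 of the 33 genes were at least 3-fold higher at 30 min, where 28 were tested, beside 8.44% of all genes tested. At 2 h 18 were, where 30 were tested, beside 6.16%. They were the same 18 genes, namely 5 pan-leukocyte, 12 myeloid and 1 T cell gene. Over probes detected on both arrays, 30 min and 2 h differed by an SD of 0.38, and the spot error gives 0.35. Whether the 2 sets of values are independent was not tested, so their agreement is not a replication. At 16 h 8 genes were at least 3-fold higher, beside 7.33% of all genes, and 7 of these were among the 18. At 4 h there were 2, beside 3.26%, both of which were also higher at 16 h. None was at least 3-fold higher at 8 h, 12 h or 24 h, on the slide that also carried CTR, where 0.625%, 0.178% and 0.156% of all genes were. The list was chosen with these contrasts known, so nothing is read from the gap to the background. The median change of the genes with a measured change or a bound was 3.01 (log2, 28 genes) at 30 min and 3.00 (28 genes) at 2 h. That of all such genes on the array was -0.19 at both. At 16 h the median of the members was 1.01 (23 genes). At 4 h it was -0.84 (13 genes), but 0.83 with the median of each array as the scale, so it has no settled direction. Bounds entered these medians as values, and a gene undetected in CTR entered only where it was detected. The medians therefore cover different genes and are not compared between arrays. In these bulk samples fewer cells of a type and less RNA per cell cannot be told apart.

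LAPTM5, a lysosomal membrane protein of blood cells, had the highest bound among the pan-leukocyte genes at 2 h. Its level was 6.38 and 6.24 on the 30 min and 2 h arrays, 1.43 at 4 h and 3.50 at 16 h, and it was not detected in CTR (-2.51) or at 8 h (-2.68), 12 h (-3.36) and 24 h (-2.08). All arrays of slide 2 stood above those of slide 1, at least 155-fold above CTR at 30 min, 141-fold at 2 h, 5.03-fold at 4 h and 21.2-fold at 16 h. ARHGDIB, a regulator of small GTPases in blood cells, was detected at 30 min (3.92), 2 h (3.99) and 16 h (1.49) and on no other array. It was at least 29.7-fold higher than CTR at 2 h and at least 5.23-fold higher at 16 h. CORO1A, an actin-binding coronin, was detected at 30 min (2.46) and 2 h (2.46) alone, at least 10.3-fold above CTR. LCP2, an adaptor of immune receptor signalling, was detected on the 4 arrays of slide 2 at 2.27, 2.19, -0.91 and 0.01 in order of time, and was at least 8.52-fold higher than CTR at 2 h.

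ITGB2, the common chain of the leukocyte beta2 integrins, was the one gene of the 18 whose main probe was also detected in CTR. Slide 1 gave levels of 1.17 (CTR), 1.08 (8 h), 0.62 (12 h) and 1.18 (24 h), and slide 2 gave 4.68 (30 min), 4.82 (2 h), 0.08 (4 h) and 2.19 (16 h). The 30 min and 2 h arrays stood apart from the others, at 11.4-fold and 12.5-fold above CTR, and 4 h was the lowest. None of the other 5 probes of ITGB2 was detected in CTR, and 1 of them was at least 45.8-fold above CTR at 2 h. LCP1, an actin-bundling protein also made by many cell lines of other origin, lay between 4.97 and 6.20 on the 8 arrays and changed by no more than 1.60-fold from CTR with its main probe. Its other probe was detected on the 8 arrays at -0.13 to 1.13 and was up to 1.99-fold below CTR, at 8 h.

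SPI1, the transcription factor of the myeloid and B cell lineages, had levels of 5.13 (30 min), 5.28 (2 h), -0.98 (4 h) and 1.68 (16 h), and was not detected on the arrays of slide 1. With this probe it was at least 72.6-fold higher than CTR at 2 h and at least 5.97-fold higher at 16 h. The other SPI1 probe outside the dark block was detected at 2 h alone (-1.68) and had no fold against CTR. CSF1R, the receptor through which macrophages receive their survival signal, had levels of 4.39, 3.95, -0.24 and 2.08 at 30 min, 2 h, 4 h and 16 h and was likewise not detected on slide 1. Its bound against CTR was 28.8-fold at 2 h and 7.89-fold at 16 h. CSF3R, the receptor of granulocytes for their growth factor, was detected at 30 min (1.95), 2 h (3.30) and 4 h (-1.11) and not at 16 h (-2.39). It was the gene that differed most between 30 min and 2 h, being 2.56-fold higher at 2 h.

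The adaptors that couple activating receptors to kinases were bright as well. TYROBP had levels of 5.75 (30 min), 5.26 (2 h), -0.76 (4 h) and 1.38 (16 h), and it was detected at 12 h (-0.62) but not in CTR (-0.32) or at 8 h (-0.51) and 24 h (-0.06). The 4 h value was no higher than those of slide 1, and the 2 h array was at least 47.8-fold above CTR. FCER1G, the signalling chain of several Fc receptors, was detected at 30 min (3.16), 2 h (3.12) and 16 h (0.10). FCGR1A, the high-affinity IgG receptor, was detected on the same arrays at 2.10, 2.01 and 0.53, at least 7.53-fold above CTR at 2 h. LYN, a Src family kinase of these pathways, lay at 4.57 and 4.84 at 30 min and 2 h, at least 43.2-fold above CTR at 2 h, and at -0.63 and 0.52 at 4 h and 16 h. CD14, the co-receptor for bacterial lipopolysaccharide, was detected at 30 min (2.01) and 2 h (1.44) only with its main probe, and its other probe outside the dark block was brighter on those arrays (4.55 and 4.11) and likewise dim elsewhere.

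The subunits of the superoxide-producing NADPH oxidase did not move together. CYBB, the catalytic subunit, was detected at 30 min (2.06) and 2 h (1.95) alone, at least 7.19-fold above CTR at 2 h. CYBA, its membrane partner, which many tissues make, was detected on every array at 3.83 to 4.80 and was at most 1.85-fold above CTR. NCF4, a cytosolic subunit, was not detected on slide 1 and had levels of 3.07 (30 min), 3.01 (2 h), -1.47 (4 h) and 3.94 (16 h). It was the one gene of the 16 that was higher at 16 h than at 2 h, by 1.90-fold, and it was at least 28.6-fold above CTR at 16 h. NCF1, the organizer subunit, was detected on every array but 16 h, at 1.62 in CTR, 3.08 at 2 h and -0.62 at 4 h. It was 2.75-fold higher than CTR at 2 h and 4.73-fold lower at 4 h.

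Lysosomal and macrophage genes were split. CTSS, a protease of antigen processing, had levels of 5.39 (30 min), 4.15 (2 h), -0.47 (4 h) and 2.44 (16 h) and was not detected on slide 1, so that it was at least 33.2-fold above CTR at 2 h. CD68, a lysosomal glycoprotein of macrophages, was detected at 30 min (5.17), 2 h (4.38), 16 h (0.54), 8 h (-0.26) and 12 h (0.05), at least 25.4-fold above CTR at 2 h. LYZ, the gene of lysozyme, which ruminants carry in several copies that a probe may not separate, was detected on every array at 0.96 to 3.81. AIF1, a calcium-binding protein of macrophages, was detected on every array between 0.35 at 12 h and 2.55 at 16 h, with 1.07 at 2 h and 1.66 in CTR. Neither gene was 3-fold higher at any time point. ITGAM, the alpha chain of a myeloid beta2 integrin, was detected with none of its 3 probes, and neither was CD163, a macrophage scavenger receptor with 1 probe.

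CD3E, a chain of the T cell receptor complex, was detected at 30 min (2.13), 2 h (1.26) and 16 h (0.19) and was at least 8.18-fold and 4.48-fold above CTR at 30 min and 2 h. CD8A, the co-receptor of cytotoxic T cells, was detected at 30 min (0.34) and 2 h (-0.43), and CD2, an adhesion receptor of T cells, at 2 h (-1.44) alone. CD3D was detected with 1 of its 3 probes, at 0.70 to 1.94 on 7 arrays, and was not detected at 16 h, where it was at least 6.66-fold below CTR. CD4, the co-receptor of helper T cells, was detected with 1 of its 5 probes, on every array, and this probe was lower at 30 min (2.08), 2 h (1.28) and 4 h (1.52) than in CTR (3.49). It was 4.65-fold lower than CTR at 2 h, the only one of the 33 genes at least 3-fold lower there, beside 7.87% of all genes. With the median of each array as the scale the fall was 2.86-fold. CD79A, a chain of the B cell receptor, was detected with 1 of its 2 probes and was highest in CTR (1.01), at -0.34 at 2 h and -1.14 at 4 h. At 4 h CD4, CD79A, NCF1 and LYZ were at least 3-fold lower than CTR, beside 5.32% of all genes, but by 1.85-fold, 2.09-fold, 2.22-fold and 1.79-fold with the median of each array as the scale. At 16 h CD3D, CD79A and NCF1 were, beside 6.3%, but with another background correction (normexp) CD79A and NCF1 were lower by 1.78-fold and 2.39-fold. At 30 min none was at least 3-fold lower, beside 4.6%, nor on slide 1 at 8 h, 12 h or 24 h, beside 0.159%, 0.577% and 0.612%.

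**Figure D3:**
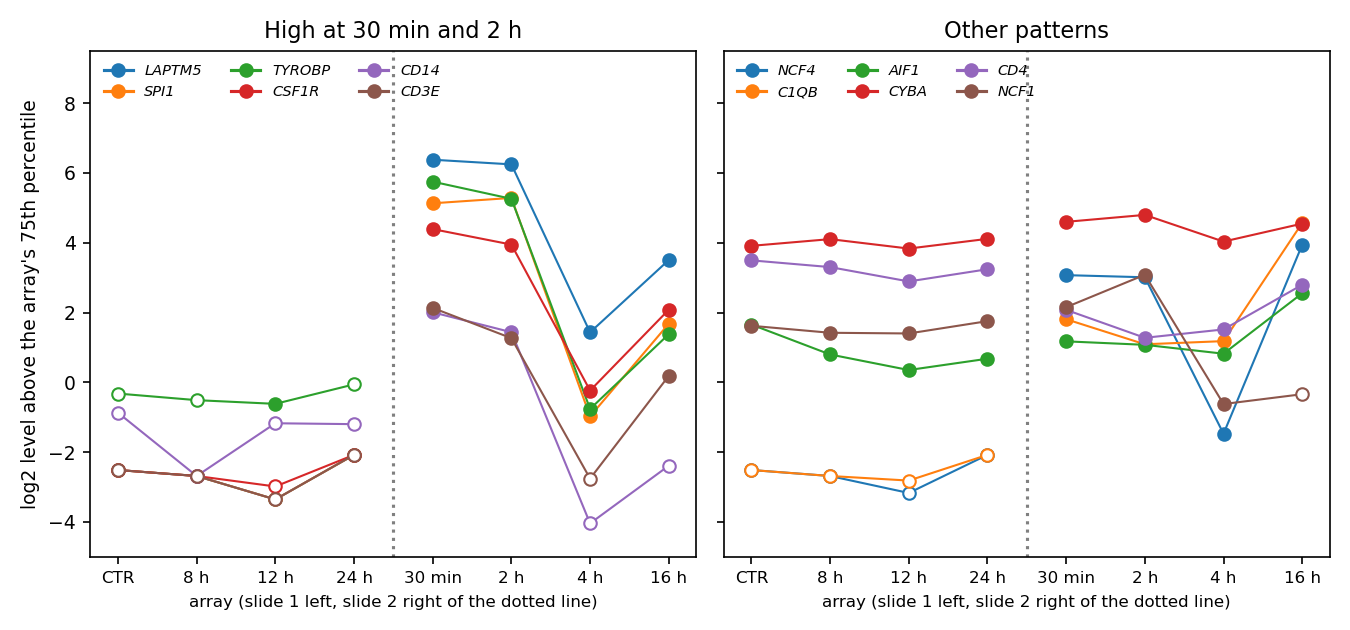
Log2 level above the array's 75th percentile of the main probe of chosen genes on the 4 arrays of slide 1 and the 4 of slide 2; filled points were detected and open points were not. In the left panel LAPTM5, SPI1, TYROBP and CSF1R lie at 3.95 to 6.38 at 30 min and 2 h; in the right panel NCF4 and the complement gene C1QB are highest at 16 h, and CYBA stays between 3.83 and 4.80.

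Different probes of a gene did not always tell the same story. Of the 24 genes with several probes outside the dark block, 17 had a probe at least 3-fold higher at 2 h than in CTR, and in 11 of these at least 2 probes were. Counted by probe, 32 of 73 were at least 3-fold higher at 2 h, beside 5.93% of all probes, and 1 was lower, beside 7.76%. PTPRC, the phosphatase CD45 of all leukocytes, was the plainest case. The probe taken for the gene was detected on every array at 1.33 to 1.84 on slide 1 and 3.11 to 3.41 on slide 2, and showed no difference between 2 h and 4 h beyond 1.23-fold. The probe that lies 218 bases from it, in a dim patch of the array at 16 h, was detected at 30 min (2.67) and 2 h (2.56) alone, at least 10.3-fold above CTR at 2 h, and the probe farther upstream shown above was detected at 2.31 and 2.08 on the same arrays. RAC2, a small GTPase of blood cells, split in the same way, with 1 probe at 2.46 and 2.59 at 30 min and 2 h and not detected elsewhere, and the other near the limit on 4 arrays. With any of its probes counted, 20 genes were at least 3-fold higher at 2 h, PTPRC and RAC2 being the added ones. For TYROBP, CSF1R, CTSS and LYN 2 probes followed each other on the arrays of slide 2. A further CSF1R probe and the second probes of NCF4 and FCGR1A were detected on no array. Detected at 2 h alone were a further LYN probe (-1.54), 2 further ARHGDIB probes (-0.71 and -1.12) and the second CD3E probe (-1.76).

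**Figure D4:**
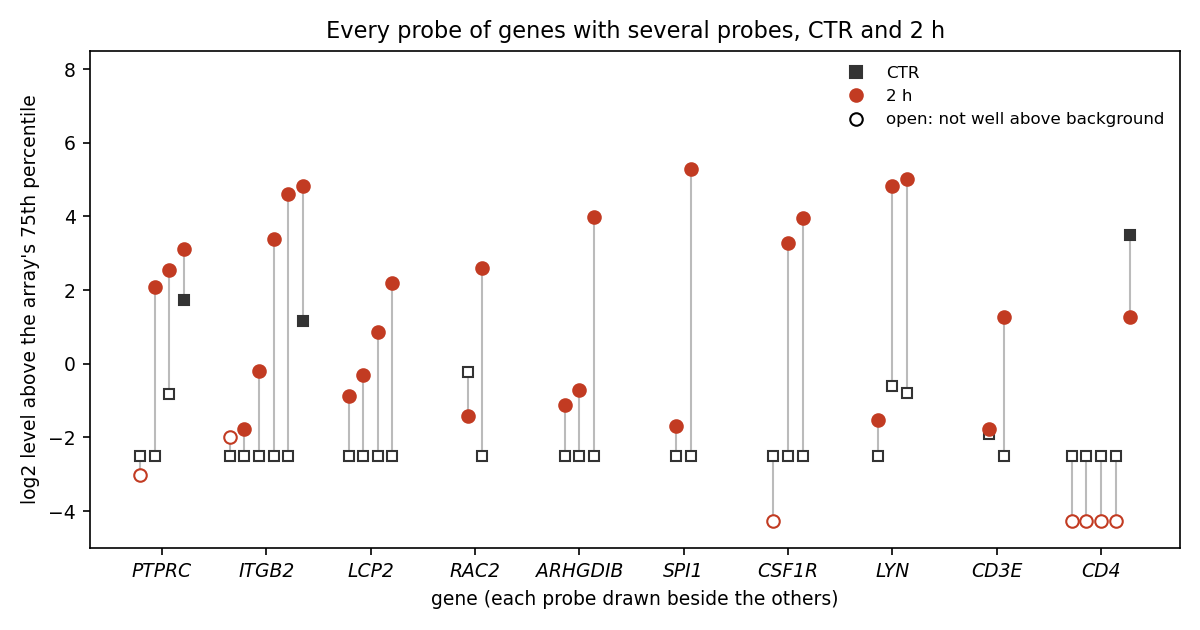
Log2 level above the array's 75th percentile of every probe outside the dark block for 10 genes, in CTR (squares) and at 2 h (circles), joined by a line for each probe; open symbols were not detected. In PTPRC and CD4 1 probe is detected in CTR, at 1.72 and 3.49, while the other probes of those genes are not.

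Within slide 2, which leaves the slide out of the comparison, the 2 h array was at least 3-fold higher than 4 h for 21 of the 33 genes, beside 7.5% of all genes, and higher than 16 h for 18, beside 5.21%. The 30 min array gave 21, beside 7.22%, and 19, beside 8%. In the opposite direction none of the 33 was called, beside 2.05% (2 h and 4 h), 6.02% (2 h and 16 h), 1.03% (30 min and 4 h) and 4.32% (30 min and 16 h) of all genes. SPI1 was 76.6-fold higher at 2 h than at 4 h and 12.2-fold higher than at 16 h, all measured above background. TYROBP was 64.9-fold and 14.7-fold higher, and LAPTM5 28.1-fold and 6.69-fold. The main probes of CYBA, LCP1 and PTPRC differed by 1.82-fold at most between 2 h and either of these arrays, and the other LCP1 probe was 2.27-fold and 1.93-fold higher at 2 h. Of the 16 genes detected at 30 min and 2 h and on no slide 1 array, 11 were higher at 16 h than at 4 h, the other 5 having no order there, and 15 of 16 were higher at 2 h than at 16 h. Where detected at 16 h too, the median gap from 2 h was 2.18 (log2, 11 genes). The 16 genes were chosen by their detection at 30 min and 2 h, so this order follows in part from the choice. Between 30 min and 2 h none of the 33 differed 3-fold, where 0.124% of all genes were higher and 0.201% lower at 2 h, and for 10 of the 16 the difference lay within 0.35, the error with the spot SD of CTR in place of that at 30 min.

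Further leukocyte genes were listed apart from the 33. Of 16 other pan-leukocyte genes 7 were at least 3-fold higher at 2 h, among them CD52, CD53 and CD48 (at least 36.5-fold, 33.4-fold and 24.3-fold), all surface proteins of leukocytes. VAV1, an exchange factor of blood cells, went the other way, from 2.64 in CTR to -1.02 at 2 h, 12.7-fold lower. Of 37 other myeloid genes 15 were at least 3-fold higher at 2 h, among them GPNMB (33.4-fold), C1QA (16.3-fold) and IRF8 (11.6-fold), each a bound, and 4 were at 16 h. The chains of complement C1q, which macrophages make, were highest at 16 h, C1QA at 3.13 at 2 h and 4.61 at 16 h, C1QB at 1.09 and 4.57, and C1QC at 1.41 and 3.31. Of 23 T cell and NK genes 10 were detected nowhere. CCR7, a chemokine receptor that guides lymphocytes to lymph nodes, was at least 8.05-fold higher at 2 h, and NKG7, a granule protein of cytotoxic lymphocytes, at least 4.79-fold. Of 11 B cell genes 7 were detected on no array, and at 2 h BLK was at least 3.15-fold higher and PAX5 at least 4.51-fold lower than CTR. None of 5 mast cell genes was detected. Of 10 erythroid and platelet genes 7 were detected nowhere, and at 2 h the platelet chemokine PF4 was at least 5.91-fold higher, the haemoglobin chaperone AHSP at least 3.98-fold lower and the haemoglobin gene HBA 2.91-fold lower than CTR.

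Lists outside the leukocyte lineages moved on the same arrays, and their part in the levels above was not tested. Of 12 cytokines and chemokines that activated leukocytes, and also other cells, secrete, 11 were at least 3-fold higher than CTR at 30 min and at 2 h and 1 was at 16 h; IL8, CCL3, TNF and IL1B were at least 209-fold, 116-fold, 106-fold and 101-fold higher at 2 h. Their summed level was 9.49 and 9.27 at 30 min and 2 h against 4.87 in CTR. Of 5 MHC class II genes 4 were at least 3-fold higher at 30 min, 2 h and 16 h and 1 at 4 h, with BOLA-DRA at 6.24, 5.33, 1.21 and 3.89 at 30 min, 2 h, 4 h and 16 h. At 16 h 10 of 13 fibroblast genes and 5 of 12 endothelial genes were detected, against 5 and 2 at 2 h and 5 and 1 in CTR. The collagen gene COL1A2 and the endothelial gene CLDN5 stood at 2.94 and 2.92 at 16 h and were not detected at 30 min or 2 h. At 2 h COL1A1, COL3A1 and DCN were 6.46-fold, 4.77-fold and 4.32-fold lower than CTR and S100A4, which leukocytes also make, was 9.04-fold higher. Summed, with undetected genes at their limit, the fibroblast genes lay between 6.75 at 4 h and 7.87 at 30 min. The endothelial genes lay between 2.27 at 2 h and 5.04 at 16 h. At 8 h and 24 h their sums of 3.08 and 3.61 came from undetected genes alone. The lower sum at 2 h is therefore not read as less endothelial signal.

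**Figure D5:**
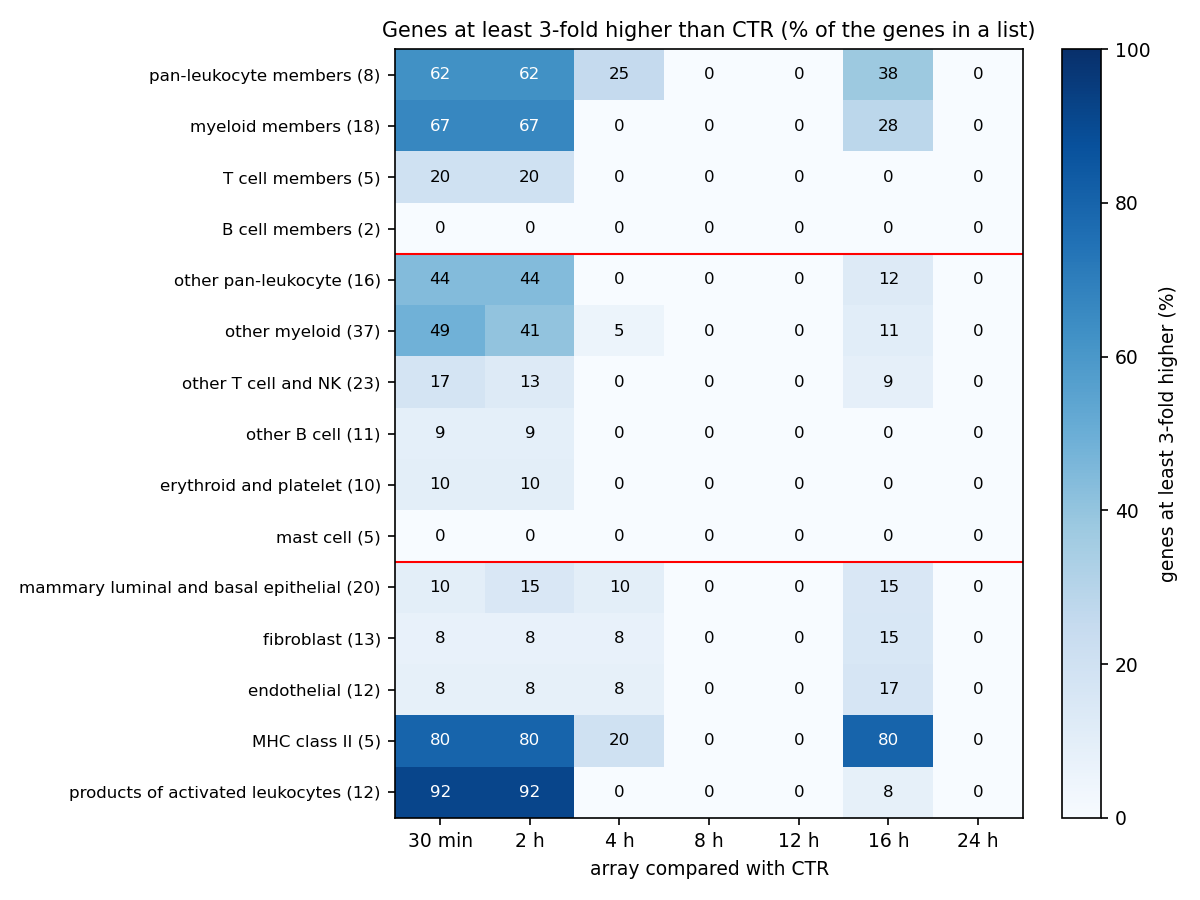
Percent of the genes of each list (rows, with the number of genes) at least 3-fold higher than CTR on each array (columns); the red lines part the 33 genes, the other blood cell lists and the marker lists. The columns of 8 h, 12 h and 24 h are at 0 throughout. Each myeloid and pan-leukocyte row is darker at 30 min and 2 h than in its other columns. The rows of MHC class II and of products of activated leukocytes are darker still on those arrays.

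The genes most like the 33 in pattern were found from the median profile of the 24 pan-leukocyte and myeloid genes detected at 2 h, as the smallest mean absolute difference over the 8 arrays among 11620 other genes, with undetected values set to the limit. The nearest were C28H10orf54 (0.20 on the log2 scale), APBB1IP (0.20), a probe without a gene symbol (0.25), CXCR6 (0.26) and SCIN (0.26). BIRC3, LRRC33, CTSW, ADA and a further unnamed probe followed at 0.26 to 0.29. The median distance of all genes compared was 1.31, and that of the 24 genes behind the profile was 0.80.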

How the data were processed

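The 8 conditions, of 1 array each, were read from 1-colour Agilent cattle arrays. Per the file headers, spot intensities were extracted by the authors with Feature Extraction 9.5.3.1, and the gProcessedSignal intensity is background-subtracted. The deposited log2 values are the authors' values scaled to the 75th percentile and centred on each probe's median. Here log2 intensity minus the array's 75th percentile was used, with outlier spots left out and repeat spots averaged. At 30 min, where the scanner intensities departed from the deposited log2 values (1462 outlier spots, spot SD 2.03), the deposited values were used, and detection there meant reaching the highest limit of the other 7 arrays (0.02). The main probe of a gene was the one outside the dark block (rows 216 to 330, columns 30 to 59) detected on most of those 7 arrays, ties going to the higher mean level over them. A gene was counted at a log2 change of 1.58, that is 3-fold. Members and lists were chosen with earlier results of these data known. Genes were named where detected on at least 1 array, with, for each other list, up to 4 with the largest change at 2 h, genes chosen after their values were seen (the C1q chains, COL1A2, CLDN5, VIM and single keratins) and the 10 nearest in profile. Some genes of these lists are not reported here. Samples had no replicates, so the number of arrays limits the precision. The change code was tested on simulated arrays. Alternatives covered scaling, background (limma 3.58.1, normexp, offset 50), bounds, probes, patches and thresholds. Python 3.11.15 and R 4.3.3 were used.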

Additional observations from a re-analysis of the deposited data

Results flagged for a closer look

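Some signal lay in data that the comparisons left out. The 3 probes in the block that was dark on the CTR array were detected at 2 h, at log2 levels of 4.93 for LYZ, 4.27 for CD14 and -0.83 for SPI1. CTR, being dark there, is no control for these probes. The CD14 probe was detected on every array but CTR, at 5.51 at 30 min, 2.25 at 4 h, 2.40 at 16 h and -0.27, -0.11 and 0.84 on the 8 h, 12 h and 24 h arrays, unlike the CD14 probes outside the block. The LYZ probe was at 6.32 at 30 min and 0.99 at 16 h and was not detected on slide 1, unlike the LYZ probe outside the block, which was detected on every array. In the 30 min scanner intensities, which were not used, 15 of the 33 genes were well above background, where 19.3% of all genes were, against 10 in CTR. In these intensities 13 were at least 3-fold higher than CTR and 1 lower, where 47.2% and 24.9% of all genes tested were.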

How the results depend on the processing

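No paired analysis was possible because each condition had 1 array. The counts at least 3-fold higher than CTR stayed between 14 and 21 at 2 h over 12 alternatives and between 13 and 20 at 30 min over 13, and were 0 at 8 h and 12 h throughout. The lowest count at 30 min, 13, came from the scanner intensities, where 47.2% of all genes tested were at least 3-fold higher. At 24 h 1 gene was counted with the dark block kept. At 4 h the count of 2 became 5 with values as given, 1 with the mean over all probes and 0 at a log2 change of 3. At 16 h the count of 8 became 5 with normexp, 5 with the mean over probes, 13 at 2-fold and 3 at a log2 change of 3. The count higher at 2 h than at 16 h became 8 at a log2 change of 3. The median change at 2 h of 3.00 became 3.62 with median scaling, 2.46 with normexp, 3.65 with values as given and 1.62 with the mean over probes. At 30 min it became 3.94 with normexp, 3.51 with values as given, 2.26 with the mean over probes and 4.24 with the scanner intensities. The cause was not tested. Any time point gave 19 genes and the contrasts within slides 22; added after the data were seen, leaving out 30 min and 2 h together gave 8. Median scaling shifted all probes by 0.70 at 2 h and 1.09 at 4 h and turned the median change of the 33 genes at 4 h to 0.83; no gene was then 3-fold lower at 2 h or 4 h. Of the 154 other values 126 stayed within limits and 28 moved. The higher limits of detection at 30 min and 24 h (both 0.02) restrict what could be detected there.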
